A study of Mus musculus with 4 samples.

Results

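The 35 genes described here encode the transport trains, the cargo adaptor, the gate and the Hedgehog platform of the primary cilium. They were chosen by name, with no measured value in the rule but with earlier results of these data known. All 35 were found among the 34547 genes of the files. They comprise 6 subunits of IFT-A, 12 of IFT-B, 2 of the dynein-2 motor, 7 genes of the BBSome (a protein coat) with its GTPase, 5 of the transition zone, both Evc genes and the ciliary GTPase gene Arl13b. RNA was sequenced from chondrocytes of mouse forelimb cartilage (C57BL/6 strain) cut out of cryosections by laser. HC denotes hypertrophic chondrocytes at embryonic day E15.5 (replicates 3 and 4), and PC denotes proliferating chondrocytes at embryonic day E14.5 (replicates 1 and 2). Stage and cell state differ together between the groups and cannot be told apart. No genotype or treatment is given in the labels, and whether a library pools several embryos is not stated in them. The p-values therefore measure the spread between these samples, which may be technical.

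The primary cilium is a single non-motile antenna that grows from the mother centriole of most resting cells. Intraflagellar transport (IFT) trains carry building blocks and receptors along it: IFT-B trains move outward with kinesin-2, IFT-A with dynein-2 carries material back, and the BBSome loads membrane proteins for exit. The transition zone is the gate at its base. In the growth plate the cilium is the site where chondrocytes receive Indian hedgehog, and inherited defects of these genes cause skeletal ciliopathies with short ribs and limbs.

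Estimated counts came to 15246529 and 21866266 in HC, against 30373440 and 36644496 in PC, so HC had fewer reads assigned to transcripts. The hypertrophic state was visible in Col10a1, the collagen of hypertrophic cartilage, though its edgeR adjusted p was 0.0538. It had 17800 and 26920 CPM in HC, against 109 and 876 CPM in PC (CPM, the deposited counts scaled to a common library size). The PC libraries differed in this respect. The 10 hypertrophic markers had a median of 32.2 TPM in PC replicate 1 and 143.5 TPM in PC replicate 2, against 1705 and 1446 TPM in HC. Col2a1, the main collagen of all cartilage, was abundant in every library, at 13020 and 15650 CPM in HC and 21870 and 15020 CPM in PC. Its groups overlapped, so it does not mark the proliferating state here. HC replicate 3 stood apart in the share of counts taken by the gene model Gm10800, at 8.78%, against 2.68% in HC replicate 4 and 1.76% and 2.41% in PC. Mitochondrial genes took 20.23% and 14.17% of counts in HC, against 8.86% and 13.22% in PC, and 16900 and 17878 genes had a count in HC, against 21231 and 21024 in PC. The part of these library differences in the results was not tested. The HC libraries also differed more from each other than the PC libraries did, which bears on every gene below. Between HC replicates 3 and 4, 11 of 35 cilium genes differed by more than 2-fold, against 0 of 35 between PC replicates 1 and 2. The median gap over the 35 genes was 1.41-fold in HC and 1.18-fold in PC, while over all genes tested it was 1.59-fold and 1.28-fold.

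In HC, most cilium genes had values below those in PC, but few differences stood out from the spread between libraries. All 35 genes passed the filter on low counts. With edgeR's quasi-likelihood test, adjusted over all 16607 genes tested with a threshold of 0.05, 1 of 35 fell (Wdr35) and 0 rose. Over all genes tested, 4.71% were called in either direction, 1.96% lower and 2.75% higher, so the share of 2.86% of cilium genes lower in HC was close to the background. At an unadjusted edgeR p under 0.05, 10 cilium genes were lower and 1 was higher, where 14.4% and 12.7% of all genes were. DESeq2 called 5 lower (Wdr35, Evc, Tmem231, Ift27 and Ift88) and 1 higher (Ift57), against 9.2% and 10.3% of the genes with an adjusted p in that test. The direction was more uneven than the calls: 27 of 35 log2 fold changes (HC over PC) were below 0, 77.1% against 51.3% of all genes. The median was -0.47 over the 35 genes and -0.04 over all genes. In 17 genes both HC libraries lay below both PC libraries, 48.6% against 33.3% of all genes, and in 5 both lay above, 14.3% against 27.7%. In such bulk samples fewer cells with a cilium and less RNA per cell cannot be told apart. Without HC replicate 3, 9 cilium genes were lower and 1 higher (backgrounds 15.2% and 13.1%), and without HC replicate 4, 12 were lower and 1 higher (20.7% and 18.3%). Those fits take the spread from the PC pair alone, and the lone HC library is assumed to vary like it. Without PC replicate 1 or PC replicate 2, the 1 gene called lower was Tmem231 (backgrounds 1.41% and 2.98%). With no filter 4 were lower (4.0%), with mitochondrial genes and Gm10800 left out Wdr35 alone was (1.95%), and 0 were lower with RLE scaling (1.82%), with a minimum of 10 counts in 2 libraries (1.42%) and with an offset for transcript length (1.01%).

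**Figure D1:**
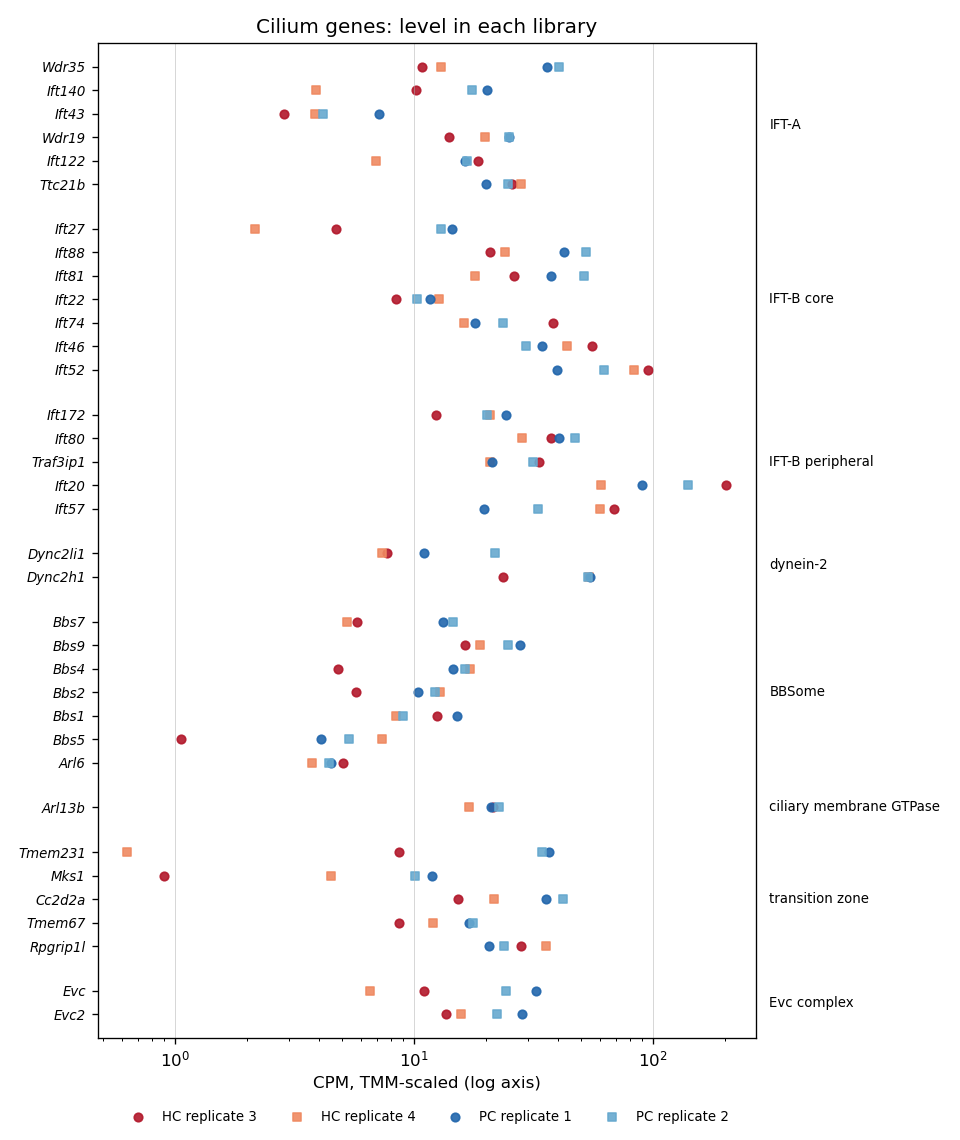
CPM of each of the 35 cilium genes in each library, on a log axis, grouped by complex and ordered within it by log2 fold change; each point is 1 library (HC red tones, PC blue tones). PC points lie less than 2-fold apart in every gene, up to 1.98-fold in Dync2li1, whereas HC points of Tmem231, Mks1, Bbs5, Bbs4 and Ift20 lie more than 3-fold apart.

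Differences between complexes were not tested. Medians of log2 fold change were -0.65 for IFT-A, -0.01 for IFT-B, -0.80 for dynein-2, -0.28 for the BBSome, -1.08 for the transition zone and -1.24 for the Evc pair. Set against the median of all genes, IFT-B stood at 0.03 and changed sign with the library left out, at -0.24 without PC replicate 1 and -0.27 without HC replicate 3, against 0.23 without HC replicate 4. The medians of the other complexes lay below that of all genes under all 14 alternatives of scaling, filter, tool and libraries. Deposited TPM, which is scaled to transcript length, gave the summed level of each complex. TPM was not rescaled with TMM, and in the TPM fits the median of all genes tested was also lower in HC. The sums below are not corrected for that shift. Transition zone genes summed to 12.1 and 24.9 TPM in HC, against 65.5 and 58.9 TPM in PC. The Evc pair summed to 7.12 and 11.0 TPM in HC, against 42.5 and 28.6 TPM in PC. In both, neither HC library reached the lower PC library. BBSome genes summed to 33.1 and 81.7 TPM in HC and 88.1 and 80.1 TPM in PC, so HC replicate 4 lay among the PC libraries and HC replicate 3 far below. All 12 IFT-B subunits summed to 449.3 and 452.2 TPM in HC, against 484.4 and 571.2 TPM in PC, so both HC libraries lay below both PC libraries. Of these, core subunits summed to 204 and 264 TPM in HC, against 249.1 and 290.3 TPM in PC, and peripheral subunits to 246 and 188 TPM in HC, against 235 and 281 TPM in PC. Within the core and within the peripheral part the groups overlapped.

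**Figure D2:**
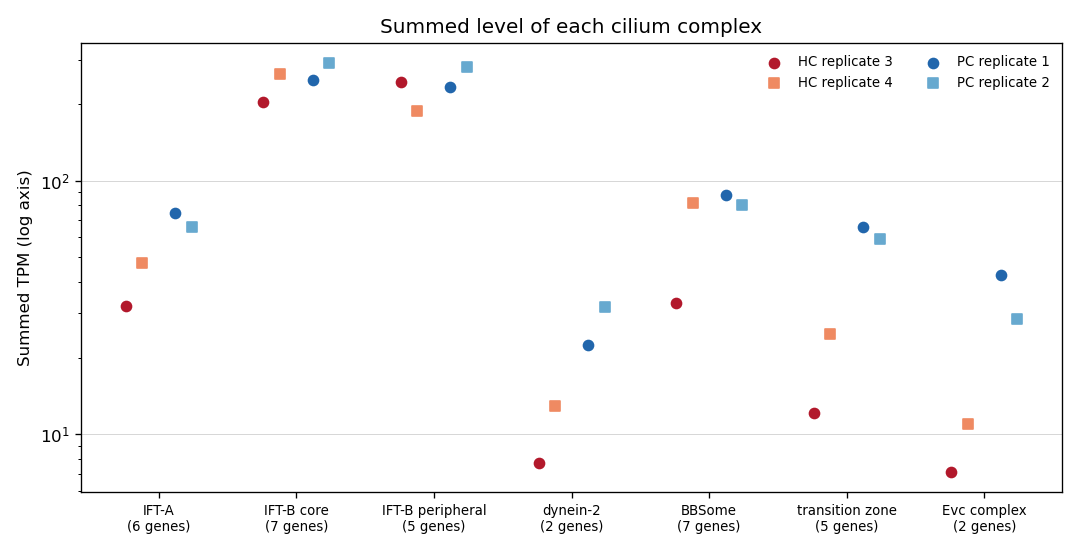
Summed TPM (log axis) of the genes of each complex in each library, HC points left of PC points. For IFT-A, dynein-2, the transition zone and the Evc pair both HC libraries lie below both PC libraries, whereas for the core and peripheral parts of IFT-B, drawn separately, and for the BBSome the groups overlap.

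IFT-A carries cargo from tip to base and brings receptors into the cilium. Wdr35 (chromosome 12, 8973892 to 9028847, GRCm38, plus strand), a subunit of IFT-A that is mutated in some skeletal ciliopathies, had 10.8 and 12.97 CPM in HC, against 35.8 and 40.3 CPM in PC. Both HC libraries were low and the groups were well apart. It fell 3.20-fold, a log2 fold change of -1.68 ± 0.32 (SE, n = 2 per group, edgeR adjusted p = 0.049). The value moved little with the processing, from -2.24 to -1.54, yet the call lay at the edge of the threshold. It passed in 5 of 14 alternatives: DESeq2 (adjusted p = 0.000656), no filter, mitochondrial genes and Gm10800 left out, and each HC library left out. The call was lost in the other 9, among them PC replicate 1 left out (edgeR adjusted p = 0.151), PC replicate 2 left out (0.2), protein-coding transcripts only (0.0749) and the length offset (0.0624). RLE scaling, library size only, the 10-count minimum and both TPM fits also lost it.

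Ift140, which with Ift122 and Wdr19 forms the core of IFT-A, had 10.1 and 3.87 CPM in HC, against 20.1 and 17.5 CPM in PC, or -1.43 ± 0.55 as a log2 fold change, which missed the threshold (edgeR adjusted p = 0.168). It was at -2.31 without HC replicate 3 and at -0.94 without HC replicate 4. With an offset for transcript length it was at 0.24. The counts of Ift140 in HC were assigned to shorter transcripts than those in PC (mean effective length 1523 and 800 bases in HC, against 3530 and 4679 bases in PC). Wdr19 had 14.0 and 19.8 CPM in HC, against 25.0 and 24.8 CPM in PC, a change of -0.56 ± 0.35 that did not pass. Ift43, the small subunit, had low levels in all libraries, at 2.84 and 3.83 CPM in HC and 7.09 and 4.15 CPM in PC. Ift122 overlapped between the groups, with 18.4 and 6.93 CPM in HC, against 16.3 and 16.6 CPM in PC. Its change was -1.28 without HC replicate 3 and 0.116 without HC replicate 4. Ttc21b, a peripheral IFT-A subunit, was the 1 member of the complex with both HC libraries above both PC libraries, at 25.65 and 28.05 CPM in HC, against 19.9 and 24.6 CPM in PC. Its difference, 0.27 ± 0.32, missed the threshold (edgeR adjusted p = 0.636), and on log2(TPM + 1) it was at -0.13.

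Core IFT-B subunits ranged from 4.01-fold lower to 1.74-fold higher in HC. Ift27, a small GTPase that helps the BBSome leave the cilium, had 4.71 and 2.16 CPM in HC, against 14.4 and 12.95 CPM in PC. All of its counts came from 1 transcript, and the groups did not overlap. Its log2 fold change was -2.002 ± 0.559 (edgeR adjusted p = 0.0941, DESeq2 adjusted p = 0.0165), and it lay between -2.69 and -1.58 with single libraries left out. Ift88, the scaffold whose loss removes cilia from mouse cartilage, had 20.7 and 23.9 CPM in HC, against 42.5 and 52.3 CPM in PC. The change was -1.08 ± 0.31, which missed the threshold in edgeR (adjusted p = 0.0966) and passed in DESeq2 (adjusted p = 0.0323). Without single libraries it ranged from -1.26 to -0.958. Ift81, which binds tubulin together with Ift74, had 26.2 and 18.0 CPM in HC, against 37.5 and 51.4 CPM in PC (-1.01 ± 0.36, edgeR adjusted p = 0.144). Without single libraries the change ranged from -1.34 to -0.792. Its partner Ift74 had 38.1 and 16.2 CPM in HC and 17.9 and 23.6 CPM in PC, so the groups overlapped, with a change of 0.39 ± 0.48 that was -0.39 without HC replicate 3. Ift22 also overlapped, at 8.36 and 12.7 CPM in HC and 11.6 and 10.3 CPM in PC.

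In Ift52 and Ift46, neighbours in the core of the train, both HC libraries lay above both PC libraries. Ift52 had 94.9 and 82.7 CPM in HC, against 39.7 and 62.5 CPM in PC, a change of 0.80 ± 0.34 (edgeR adjusted p = 0.199). That value was -0.02 when counts of protein-coding transcripts alone were used. Ift46 had 55.4 and 43.8 CPM in HC, against 34.2 and 29.3 CPM in PC (0.64 ± 0.30, edgeR adjusted p = 0.244), and stayed above 0 under all 14 alternatives.

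Peripheral IFT-B subunits, which link the train to kinesin-2, held the gene with the highest value in HC relative to PC. Ift57 had 68.8 and 60.0 CPM in HC, against 19.6 and 32.9 CPM in PC. The groups did not overlap and the HC libraries lay close together. Its log2 fold change stood at 1.29 ± 0.36, missed the threshold in edgeR (adjusted p = 0.0941) and passed DESeq2 (adjusted p = 0.0137). With single libraries left out it lay between 0.933 and 1.68. An antisense gene, Gm15518, shares 225 exon bases with Ift57, and without a stated strand setting reads of that stretch cannot be told apart. Ift20, which also works at the Golgi to sort cargo, had the highest TPM of the 35 genes, with a mean of 144 TPM over the 4 libraries. Its HC libraries were far apart, at 202 CPM (replicate 3) and 60.2 CPM (replicate 4), against 89.8 and 140 CPM in PC, and its change of 0.19 ± 0.59 was -0.96 without HC replicate 3 and 0.77 without HC replicate 4. Ift80 had 37.3 and 28.1 CPM in HC, against 40.3 and 46.9 CPM in PC (-0.42 ± 0.31). Ift172, at the tip of the train, had 12.3 and 20.7 CPM in HC and 24.3 and 20.1 CPM in PC (-0.42 ± 0.40). Traf3ip1, which binds microtubules, had 33.4 and 20.7 CPM in HC and 21.2 and 31.4 CPM in PC (0.04 ± 0.40). None of these passed, and the groups overlapped in Ift20, Ift172 and Traf3ip1.

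The dynein-2 motor pulls the trains back to the base. Dync2h1, its heavy chain, had 23.6 and 54.0 CPM in HC, against 54.2 and 53.3 CPM in PC. Only HC replicate 3 was low, and the change of -0.47 ± 0.44 was -1.23 without HC replicate 4 and -0.0252 without HC replicate 3. Dync2li1, the light intermediate chain, had 7.71 and 7.29 CPM in HC, against 11.0 and 21.7 CPM in PC (-1.12 ± 0.48, edgeR adjusted p = 0.203), and was at -0.58 without PC replicate 2.

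**Figure D3:**
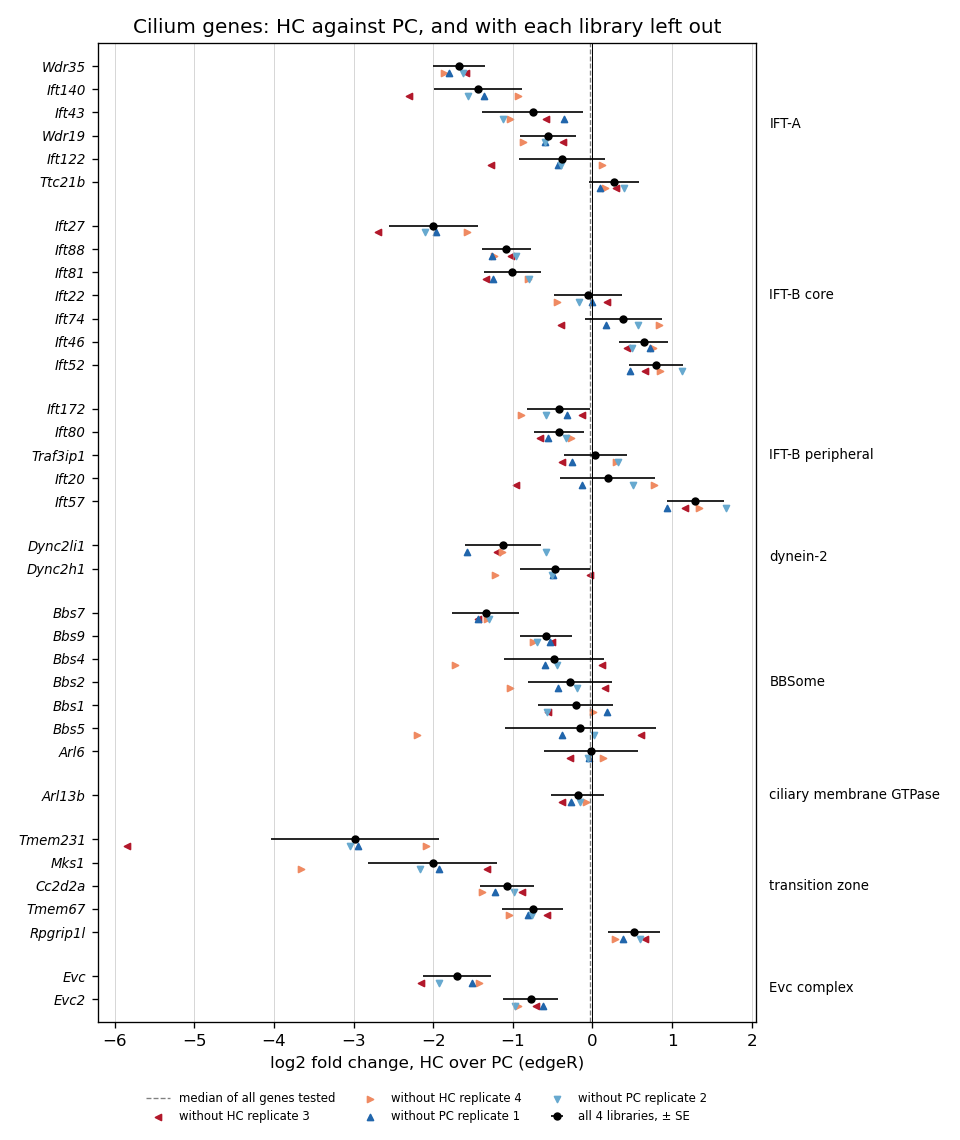
Log2 fold change (HC over PC) of each gene with its SE from all 4 libraries (black), and the same value with 1 library left out (coloured triangles); the dashed line is the median of all genes tested, at -0.04. Tmem231 moves between -5.84 and -2.09 and Bbs5 between -2.20 and 0.61 with the library left out, whereas Wdr35 stays between -1.86 and -1.59.

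BBSome genes were below 0 in all 7 cases in the fit of all libraries, with small changes in most. Bbs7, one of the subunits that form the first assembly intermediate, had 5.76 and 5.22 CPM in HC, against 13.2 and 14.6 CPM in PC. The log2 fold change was -1.34 ± 0.42, which missed the threshold (edgeR adjusted p = 0.113), and varied from -1.44 to -1.30 without single libraries. Bbs9 had 16.2 and 18.9 CPM in HC, against 27.8 and 24.8 CPM in PC (-0.58 ± 0.32). These were the 2 genes of the complex whose groups did not overlap, 28.6% of the 7 with HC below PC, against 33.3% of all genes. In Bbs4, Bbs2 and Bbs5, HC replicate 3 was low while HC replicate 4 lay above both PC libraries. Bbs4 had 4.79 and 17.1 CPM in HC and 14.6 and 16.2 CPM in PC, and 194 of its exon bases overlap the gene Adpgk on the other strand. Bbs2 had 5.68 and 12.8 CPM in HC and 10.3 and 12.2 CPM in PC. Bbs5 had 1.05 and 7.34 CPM in HC and 4.07 and 5.35 CPM in PC, from 12.6 estimated counts in HC replicate 3. Bbs4 and Bbs5 were at -1.73 and -2.20 without HC replicate 4, and at 0.12 and 0.61 without HC replicate 3. Bbs1, the subunit that binds the GTPase Arl6, had 12.4 and 8.37 CPM in HC and 15.1 and 8.96 CPM in PC, and the lowest TPM of the 35 genes (2.51 on average). Arl6, which brings the coat to the membrane, had 5.03 and 3.74 CPM in HC and 4.47 and 4.39 CPM in PC, a change of -0.02 ± 0.59.

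Arl13b, a GTPase of the ciliary membrane, had 21.3 and 17.0 CPM in HC and 20.9 and 22.5 CPM in PC. The groups overlapped, and the difference was -0.18 ± 0.33 (edgeR adjusted p = 0.77).

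Transition zone genes held the lowest HC values relative to PC. Tmem231, a membrane protein of the gate (chromosome 8, 111912011 to 111933881, GRCm38, minus strand), had 8.61 and 0.63 CPM in HC, against 36.8 and 34.4 CPM in PC. The PC libraries lay close together while the HC libraries differed 13.7-fold, from 105.6 and 14 estimated counts. With all libraries the log2 fold change was -2.98 ± 1.06 and missed the threshold (edgeR adjusted p = 0.145). It passed in DESeq2 (adjusted p = 0.0107) and with each library left out. Leaving out an HC library moved it to -5.84 (replicate 3 omitted) or -2.09 (replicate 4 omitted), and leaving out a PC library to -2.95 (replicate 1 omitted) or -3.04 (replicate 2 omitted). Mks1, a soluble protein of the same module, had 0.89 and 4.50 CPM in HC, against 11.9 and 10.1 CPM in PC. It rested on 11 and 100 counts in HC, and its change of -2.004 ± 0.809 (edgeR adjusted p = 0.182) was -1.32 without HC replicate 3 and -3.66 without HC replicate 4. Cc2d2a had 15.3 and 21.5 CPM in HC, against 35.7 and 42.0 CPM in PC (-1.08 ± 0.34, edgeR adjusted p = 0.113), and ranged from -1.39 to -0.888 without single libraries. Tmem67, a receptor-like gate protein, had 8.61 and 11.9 CPM in HC, against 17.0 and 17.6 CPM in PC (-0.75 ± 0.39), and ranged from -1.05 to -0.569 without single libraries. Its exons overlap those of Rbm12b2 and Gm11842 on the other strand by 289 and 131 bases. In these 4 genes neither HC library reached a PC library, 80.0% of the 5, against 33.3% of all genes. Rpgrip1l, the scaffold that recruits the others, lay the other way, at 27.8 and 35.7 CPM in HC, against 20.5 and 23.8 CPM in PC. Its change of 0.52 ± 0.32 did not pass and was -0.63 on log2(TPM + 1) and -0.41 with protein-coding transcripts only.

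Evc and Evc2 encode the membrane proteins that bind Smoothened near the base of the cilium and carry the Hedgehog signal on, and their loss causes the dwarfism of Ellis-van Creveld syndrome. The genes lie head to head on chromosome 5, with 1605 bases between the end of Evc (37336894, minus strand) and the start of Evc2 (37338499, plus strand) in GRCm38. Evc had 11.0 and 6.53 CPM in HC, against 32.5 and 24.2 CPM in PC. The groups did not overlap, and the difference of -1.70 ± 0.42 missed the threshold in edgeR (adjusted p = 0.0772) and passed DESeq2 (adjusted p = 0.00765). With single libraries left out it lay between -2.15 and -1.42. Evc2 had 13.6 and 15.8 CPM in HC, against 28.2 and 22.1 CPM in PC, a smaller change of -0.77 ± 0.34 (edgeR adjusted p = 0.217). Whether the pair differed from each other was not tested.

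The kinds of transcript that counts were assigned to are described here without a test. The share of a gene's estimated counts in transcripts annotated as protein-coding pooled to 77.3% and 74.0% over the 35 genes in HC, against 81.2% and 81.7% in PC. Only these are called coding below. The rest are retained introns, transcripts annotated for nonsense-mediated decay, which hold a reading frame, and other processed forms. The median share over the 35 genes overlapped between the groups, at 91.2% and 85.4% in HC and 89.4% and 88.9% in PC. Over all protein-coding genes tested the pooled share was 89.7% and 88.2% in HC, against 89.4% and 88.0% in PC. Fewer than 50% of counts were coding in 9 genes of each HC library, against 3 and 4 genes in PC, and over all protein-coding genes tested this held for 19.0% and 17.0% of genes in HC, against 13.1% and 15.2% in PC. In 9 of 35 genes both HC libraries had a lower share than both PC libraries, where 14.3% of all genes did, and in 6 both had a higher one, where 15.1% did. Rpgrip1l had 7.2% and 63.8% in HC, against 80.1% and 76.4% in PC. A transcript annotated for nonsense-mediated decay took 84.9% of its TPM in HC replicate 3 and 15.95% in HC replicate 4, against 0.13% and 2.6% in PC. Ift52 had 46.0% and 53.8% in HC, against 95.4% and 88.9% in PC. Evc had 21.5% and 45.0% in HC, against 66.3% and 67.9% in PC. In Ift80, Bbs4 and Bbs5 the coding share stayed under 50% in all 4 libraries, so most of the counts given for them are not of transcripts annotated as protein-coding. In HC replicate 4 none of the Tmem231 counts were coding, and in HC replicate 3 none of the Mks1 counts were, each over few counts. For Tmem231, a transcript annotated for nonsense-mediated decay took 91.11% of the TPM in HC replicate 4. The error of assigning reads to single transcripts is unknown here. The HC libraries also had shorter fragments, read from effective minus annotated transcript length (medians of -124.7 and -145.5 bases in HC, against -172.8 and -153.3 in PC). The part of fragment length in the shares was not tested.

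**Figure D4:**
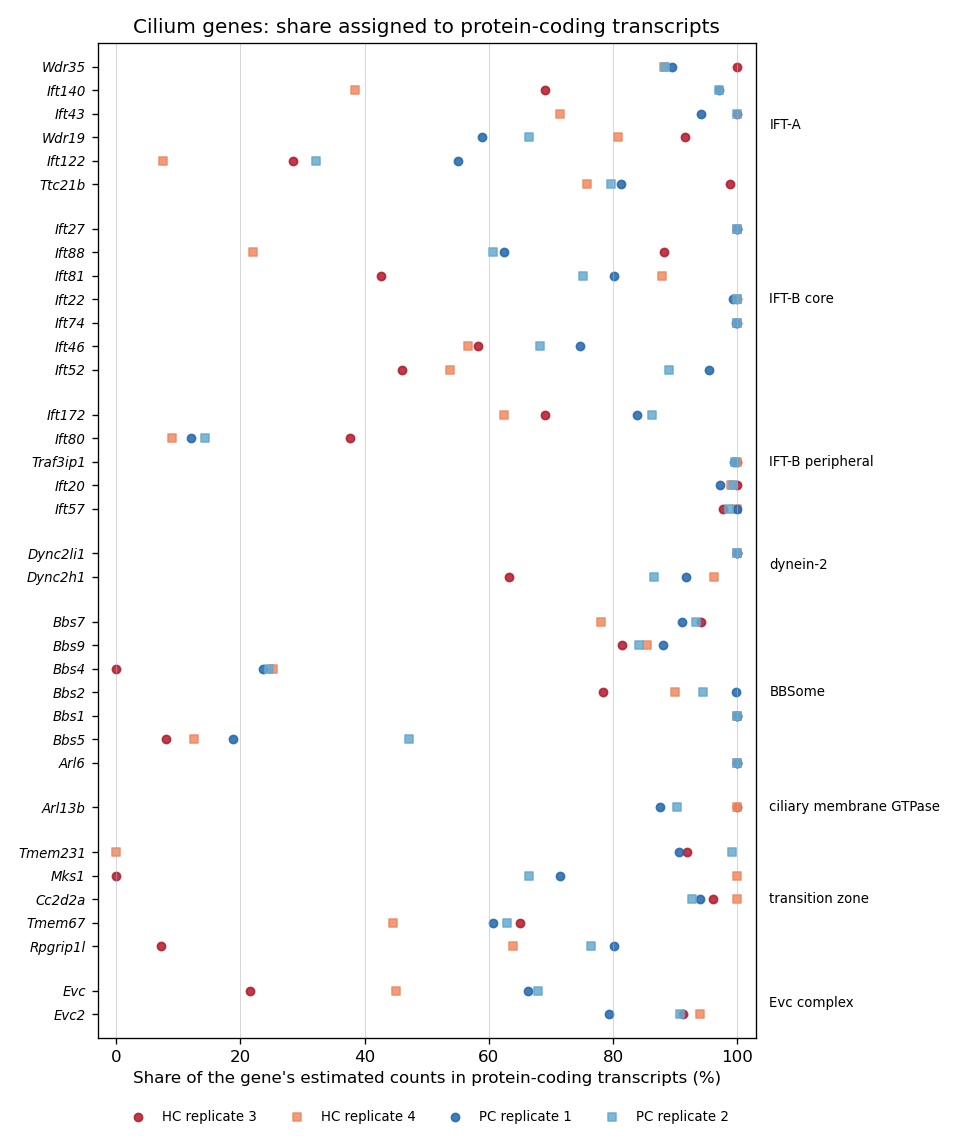
Share (%) of each gene's estimated counts assigned to protein-coding transcripts, by library (HC red tones, PC blue tones). In Ift140, Ift52, Ift172, Rpgrip1l and Evc both HC points lie left of both PC points, whereas genes such as Ift27 and Dync2li1 have all points at 100%.

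Many cilium genes are known targets of Rfx transcription factors, which bind an inverted repeat named the X-box in their promoters. RefSeq promoters (GRCm38.p6, 250 bases before to 50 after the start) were found for 30 of the 35 genes. The arm GTTGCC, searched on both strands, stood in 15 of 30 promoters, 50% against 14.1% of the 27025 genes with a promoter. The whole repeat, searched as GTTNCC, 0 to 3 free bases and GGNAAC on both strands, stood in 3 of 30, 10.0% against 0.936%. The arm can be part of the repeat. The 3 promoters with the repeat were those of Mks1, Bbs7 and Ift57, and they are printed with that of Wdr35, the gene that passed the test. Capitals mark the arm or the repeat, and each line runs 5′ to 3′ on the strand of the gene.
Wdr35 (chr12:8973751-8974050, plus strand): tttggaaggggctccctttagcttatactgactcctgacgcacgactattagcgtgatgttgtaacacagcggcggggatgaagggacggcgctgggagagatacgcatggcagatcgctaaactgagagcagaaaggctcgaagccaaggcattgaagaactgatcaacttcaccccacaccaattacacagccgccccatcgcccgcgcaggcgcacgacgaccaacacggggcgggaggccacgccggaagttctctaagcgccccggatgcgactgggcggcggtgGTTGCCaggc
Mks1 (chr11:87852965-87853264, plus strand): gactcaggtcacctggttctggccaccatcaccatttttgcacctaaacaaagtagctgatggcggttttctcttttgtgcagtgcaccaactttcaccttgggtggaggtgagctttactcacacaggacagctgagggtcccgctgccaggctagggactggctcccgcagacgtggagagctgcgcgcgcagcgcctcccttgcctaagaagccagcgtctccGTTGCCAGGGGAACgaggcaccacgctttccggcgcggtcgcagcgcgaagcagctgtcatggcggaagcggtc
Bbs7 (chr3:36613340-36613639, minus strand): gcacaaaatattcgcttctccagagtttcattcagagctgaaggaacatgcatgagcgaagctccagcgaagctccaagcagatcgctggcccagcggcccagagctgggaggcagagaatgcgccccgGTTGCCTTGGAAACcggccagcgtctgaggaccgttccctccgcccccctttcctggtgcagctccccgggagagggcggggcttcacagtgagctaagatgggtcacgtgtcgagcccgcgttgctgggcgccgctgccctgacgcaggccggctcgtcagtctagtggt
Ift57 (chr16:49699044-49699343, plus strand): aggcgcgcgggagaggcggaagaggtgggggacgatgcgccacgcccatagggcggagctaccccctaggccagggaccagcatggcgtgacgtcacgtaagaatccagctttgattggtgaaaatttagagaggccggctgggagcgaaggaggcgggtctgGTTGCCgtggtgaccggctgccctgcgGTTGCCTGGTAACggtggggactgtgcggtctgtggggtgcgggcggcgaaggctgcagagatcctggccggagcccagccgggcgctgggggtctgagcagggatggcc

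In Mks1 the repeat began 24 bases before the start, in Ift57 60 bases and in Bbs7 121 bases before it. Mks1 and Bbs7 had lower and Ift57 higher values in HC than in PC. Whether the motif goes with a direction of change was not tested. Among members whose HC libraries both lay below PC, 8 of 13 promoters held the arm, against 7 of 17 of the other members. A match is a description of the sequence, and binding was not measured. Of 10 Rfx and related ciliogenic factors, 7 were tested and 0 passed edgeR, with 0 higher and 1 lower at an unadjusted p under 0.05. Rfx5, better known as a regulator of antigen presentation, had 7.22 and 1.80 CPM in HC, against 28.2 and 34.3 CPM in PC (-2.81 ± 0.69, edgeR adjusted p = 0.076). Rfx1 had 14.4 and 19.7 CPM in HC, against 31.6 and 19.8 CPM in PC (-0.59 ± 0.40).

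Outside the 35 genes, 131 of 138 other genes of cilium assembly, gating and signalling were tested, of which 8 fell and 2 rose. Over all genes tested 1.96% fell and 2.75% rose, the background for the counts of every other list. At an unadjusted edgeR p under 0.05 it was 14.4% lower and 12.7% higher. The median log2 fold change of the 131 genes was -0.50, close to that of the 35 genes. In the Hedgehog list the effector Gli3 had 11280 and 763 CPM in HC, against 233 and 785 CPM in PC. The groups overlapped and it did not pass (3.57 ± 1.31, edgeR adjusted p = 0.152). Gli3 is named outside the rule, after its values were seen. Of that list Ihh, the ligand, passed as higher (5.46 ± 0.97). The effectors Gli1 and Gli2 and the co-receptors Boc and Cdon passed as lower, 1 higher and 4 lower of 17. Those 5 changes passed with each library left out, and Ihh was at 3.62 without HC replicate 3. The cilium disassembly list had 2 lower of 13, the kinase Aurka (-4.02 ± 0.44), which also drives mitosis, and Plk4 (-1.68 ± 0.32), the kinase that starts centriole copying. Ccp110, which caps the mother centriole and must leave before a cilium grows, fell to 11.2 and 10.6 CPM in HC, against 35.5 and 35.7 CPM in PC (-1.71 ± 0.32, edgeR adjusted p = 0.0474). It was the 1 of 20 basal body genes that passed. Dynlt3, a light chain of cytoplasmic dynein, rose to 148 and 98.7 CPM in HC, against 21.7 and 34.5 CPM in PC (2.13 ± 0.39, edgeR adjusted p = 0.0453), 1 of 12 motor genes. Ttll4, an enzyme that adds glutamates to tubulin and histones, fell (-2.004 ± 0.338), 1 of 15 axoneme genes. Without PC replicate 1 the calls of Ccp110, Plk4, Dynlt3 and Ttll4 were lost (edgeR adjusted p = 0.199, 0.147, 0.121 and 0.112), and without PC replicate 2 those of Ccp110 and Plk4 (0.155 and 0.187).

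The remaining lists had no gene that passed edgeR. Of 15 further transition zone genes 0 rose and 0 fell, with 0 higher and 3 lower at an unadjusted p under 0.05 and a median of -0.98, near that of the 5 members. Tmem107, which recruits other gate proteins, had 0 and 11 counts in HC, against 530 and 326 in PC, and its difference did not pass (edgeR adjusted p = 0.0607). Ahi1 had 22.7 and 21.9 CPM in HC, against 50.2 and 49.8 CPM in PC (-1.17 ± 0.29, edgeR adjusted p = 0.0769). Of 6 further IFT subunits 1 was lower at an unadjusted p under 0.05, Ttc26, with 5.03 and 5.04 CPM in HC, against 14.8 and 15.3 CPM in PC (-1.58 ± 0.41, edgeR adjusted p = 0.0841). Cluap1, another IFT-B subunit, had 1.62 and 5.22 CPM in HC, against 9.59 and 8.96 CPM in PC. Of 9 further BBSome and assembly genes 8 were above 0, with 0 higher and 1 lower at an unadjusted p under 0.05. Ttc8, a BBSome subunit, had 19.8 and 14.9 CPM in HC, against 9.27 and 9.76 CPM in PC (0.86 ± 0.38, edgeR adjusted p = 0.217). Ciliary membrane genes had 0 of 17 called and 3 lower at an unadjusted p under 0.05, among them the channel-like receptor Pkd1 (-1.40 ± 0.42) and Tulp3 (-1.25 ± 0.39), the adaptor that IFT-A uses to bring receptors in. The motor, basal body and axoneme lists, which each held a gene that passed, also had named genes that did not. Kif7, a kinesin at the cilium tip that regulates Gli proteins, was at -1.16 ± 0.34 (edgeR adjusted p = 0.101), Odf2 at -1.13 ± 0.28 (0.0755) and Ttll3 at 1.94 ± 0.57 (0.101).

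Markers of other cell types and of cell division moved with the groups, and their part in the differences above was not tested. The genes named here, other than Myh3, Mki67 and Foxj1, were chosen after their values were seen. Of 12 dividing cell markers 5 fell (Birc5, Bub1, Ccna2, Cdk1 and Mcm5), and the list summed to 107.5 to 191.4 TPM in HC, against 884.8 to 907.8 TPM in PC. Mki67 had 366 and 104 CPM in HC, against 1151 and 1481 CPM in PC. Red blood cell markers, with the globin genes Hba-a2, Hbb-bs and Hbb-bt among those higher, summed to 457.9 to 684.4 TPM in HC, against 68.3 to 100.9 TPM in PC. Endothelial markers had 2 of 7 higher (Cdh5 and Kdr), at 74.1 to 79.6 TPM in HC, against 16.9 to 25.9 TPM in PC. Macrophage and osteoclast markers had 3 of 8 higher (Acp5, Cd68 and Ctsk), at 162.6 to 213.2 TPM in HC, against 17.6 to 27.6 TPM in PC. Perichondrium and osteoblast markers had 2 of 9 higher (Postn and Twist1), at 1173 to 2045 TPM in HC, against 314.3 to 407.4 TPM in PC, with Bglap2 at 0 counts in HC. Muscle markers had 1 of 9 higher (Myh3), at 60.4 to 163.4 TPM in HC, against 31.6 to 52.5 TPM in PC, with Myod1 at 0 counts in HC. Nerve markers, with Mbp higher, summed to 14.4 to 48.1 TPM in HC, against 14.3 to 17.4 TPM in PC.

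Markers of cells with motile cilia, which use the same transport genes, were low in all libraries. The 18 markers summed to 27.1 and 38.2 TPM in HC, against 19.6 and 22.5 TPM in PC. Foxj1, the master regulator of such cells, had 17 and 0 counts in HC, against 0 and 6 in PC, and did not reach the filter. Dnah5, Dnah11, Tekt1 and Tekt4 were at 0 counts in both HC libraries, and Tekt4 and Fam183b were at 0 in both PC libraries. Of the 12 markers tested 10 were above 0, with a median log2 fold change of 0.415. Dnah11, a motor of motile axonemes, was the 1 that passed, lower in HC, with 169 and 108 counts in PC. Dnaic1, another axonemal motor gene, had 46 and 283 counts in HC, against 24 and 45 in PC (3.14 ± 0.86, edgeR adjusted p = 0.0896), and was named after its values were seen.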

How the data were processed

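The submitters' processing notes name Trimmomatic 0.36, kallisto 0.43.1 and the build mm10. For every transcript the deposited files hold its effective length, its estimated count and its TPM, per the file headers. No source used here states a strand setting. Of 109282 transcripts, 107987 matched GENCODE M21 (GRCm38) by identifier, and 1295, with 0.362% to 0.534% of counts per library, stayed out. Counts were added up by gene, rounded, filtered with filterByExpr and scaled with TMM in edgeR 4.0.16 (factors 0.812 and 1.021 in HC, 1.14 and 1.058 in PC). HC was tested against PC with edgeR's quasi-likelihood test, and p-values were adjusted by Benjamini-Hochberg across the whole table, and the code was tested on simulated data. Each SE is the coefficient divided by the root of its F statistic. DESeq2 1.42.0, limma 3.58.1 on log2(TPM + 1) and log2(TPM + 0.1), R 4.3.3 and Python 3.11.15 served alternatives and plots.

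The 35 genes, all other lists and the rule on which genes to name were chosen with earlier results of these data known. The rule took all 35 and, from each other cilium list, every gene that passed or, where fewer than 2 did, those with the lowest p up to 2. One listed transition zone gene was not analysed here. Some named items of the other lists are not reported here. The 2 libraries of a group were not copies, with a chi-square per degree of freedom of 193.2 in HC and 101.8 in PC. Values of low genes carry counting error as well as the spread between libraries.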

Additional observations from a re-analysis of the deposited data

How the results depend on the processing

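Counts of calls moved far more than fold changes, and the cause was not tested. Over all genes (457 higher, 325 lower), no filter gave 963 and 965, an offset for transcript length 269 and 167, DESeq2 1651 and 1468, and leaving out 1 library 379 to 3331 and 257 to 3775. Scaling by library size only, limma on log2(TPM + 1) or log2(TPM + 0.1), and protein-coding transcripts only (chosen after seeing the data) gave 0 calls over all genes, over the 35 genes and over the other cilium genes, with 1469, 1040, 1011 and 1787 higher and 2925, 3220, 2982 and 1974 lower over all genes at an unadjusted p under 0.05. Library size only and the TPM fits shifted the median of all genes to -0.292, -0.388 and -0.588. Of the 35 genes, 1 was lower in the 4-library edgeR fit, 0 with RLE scaling, a 10-count minimum or the length offset, 4 with no filter, 5 (and 1 higher) with DESeq2, and 1 to 12 (0 to 1 higher) without 1 library. The other cilium genes (2 higher, 8 lower) gave 6 and 17 with no filter, 1 and 2 with the offset, 5 and 26 with DESeq2, and 3 to 10 and 7 to 38 without 1 library. The median of the 35 genes relative to all genes (-0.432) was -0.244 with no filter, -0.313 with the offset, -0.294 on log2(TPM + 0.1) and -0.680 to -0.444 without 1 library.

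The sign held under all 14 alternatives in 18 of the 35 genes, 16 below 0 and 2 above (Ift46 and Ift57). On log2(TPM + 1) and log2(TPM + 0.1), values turned to -0.132 and -0.153 for Ttc21b, 0.0917 and 0.0987 for Ift22, -0.206 and -0.221 for Ift74, -0.642 and -0.647 for Ift20, -0.417 and -0.443 for Traf3ip1, -0.632 and -0.709 for Rpgrip1l, and -0.0951 and -0.1 for Ttc8. With the length offset, Ift140 was at 0.239, Ift22 at 0.552, Ift172 at 0.425, Bbs2 at 0.368, Bbs5 at 0.0424, Arl6 at 0.149 and Rpgrip1l at -0.215. With protein-coding transcripts only, Ift22 was at 0.0154, Ift52 at -0.0246, Ift80 at 0.566, Arl6 at 0.0499, Arl13b at 0.0498 and Rpgrip1l at -0.411. With library size only Ift20 was at -0.149 and Traf3ip1 at -0.25, and Arl6 was at 0.00274 with RLE scaling and 0.0016 with DESeq2. Without 1 library, the IFT-B median relative to all genes ranged from -0.274 to 0.226, Ift122 from -1.28 to 0.116, Ift22 from -0.439 to 0.182, Ift74 from -0.389 to 0.832, Ift20 from -0.962 to 0.77, Traf3ip1 from -0.377 to 0.318, Bbs1 from -0.569 to 0.177, Bbs2 from -1.03 to 0.153, Bbs4 from -1.73 to 0.117, Bbs5 from -2.2 to 0.607 and Arl6 from -0.278 to 0.138.

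No paired analysis was possible because the groups share no replicate number. The lowest estimated counts of the 35 genes were 11 for Mks1, 12.6 for Bbs5 and 14 for Tmem231, each in 1 HC library, and counting error is widest there.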
